A study of Mus musculus with 12 samples.

Results

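The 4 Sox9-GFP sort gates of the mouse intestinal epithelium were treated as an ordered series of reporter dose, and each gene was asked whether its RNA followed that order step by step or changed at a single gate. Gates were scored Negative 0, Sublow 1, Low 2 and High 3, and all 12 libraries of the series entered. Of 30265 genes in the table, 16577 reached 10 normalised reads in 3 libraries or more and were tested. Of these, 325 rose (1.96%) and 222 fell (1.34%) at every one of the 3 steps, 547 in all (3.3%). By a separate rule, 2153 (13%) changed at 1 gate only. That rule also needs 3 comparisons that do not pass, so the counts do not rank graded against single-gate change.

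Cells came from C57Bl/6 mice that carry a Sox9-GFP reporter, and each of the 4 gates (Sox9 Negative, Sox9 Sublow, Sox9 Low and Sox9 High) had 3 libraries, replicates A, B and C, with total RNA of 12000 sorted cells in each. Age, sex, treatment and gut segment are not given in the labels, and all gates share the same strain and reporter. Nothing in the labels ties replicates to separate animals, and p-values therefore measure only how these samples spread, which may be technical. Libraries held 11.63 to 17.05 M reads (M, 1e6) assigned to genes. The epithelial markers Epcam and Cdh1 were present in every library, at 13649 to 28985 normalised reads for Epcam and 14327 to 19802 for Cdh1.

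Sox9, a transcription factor found in intestinal crypts, acts downstream of Wnt signalling. It is present at low levels in dividing stem and progenitor cells and at high levels in certain secretory cells, among them enteroendocrine cells, which release hormones from granules, and tuft cells, which sense luminal contents. Absorptive enterocytes of the villus, which carry the digestive enzymes of the brush border, have little or none. A gate is a mixture of cell types, and in bulk RNA fewer cells of a type and less RNA per cell cannot be told apart.

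Values below are the authors' normalised reads. Differences are on the log2(value + 1) scale, where the added 1 shrinks differences at low values. They compare means of log2 values, so with uneven libraries a step can be larger or smaller than the ratio of pooled reads. The slope is the least-squares change per gate in log2 units, given with its standard error from 1 limma fit of all 12 libraries. Adjusted p-values are from limma with Benjamini-Hochberg adjustment over all genes tested, two-sided, with a threshold of 0.05. A gene was called at every step when its trend and each of the 3 differences between neighbouring gates passed in 1 direction.

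Sox9 itself, which the sort follows, checks the labels. It measured 703, 383 and 725 normalised reads in Negative libraries A, B and C, and 1955, 1259 and 3039 in Sublow. It measured 7655, 5945 and 6204 in Low and 18857, 21060 and 20868 in High. The gates did not overlap, and the 3 steps were close in size, at 1.75, 1.75 and 1.62 log2 units. The slope was 1.71 ± 0.09 per gate (adjusted p = 1.99e-08, limma), and a departure from a straight line was not called (adjusted p = 0.963).

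A linear trend was called for 9507 genes, 57.4% of those tested, of which 5018 rose (30.3%) and 4489 fell (27.1%). Rising genes were thus 52.8% of those called, but 74.6% when libraries were scaled to the same total, a scaling under which the median slope of all genes moved from 0.0155 to 0.186. The normalised total per library was 17.45 to 20.59 M reads in Negative, 14.54 to 16.64 M in Sublow, 12.34 to 13.15 M in Low and 13.32 to 13.41 M in High. Its part in the trends was not tested. The trend alone did not describe a step by step change. Of the 5018 rising genes, 23.4% had no single step called, 45.8% had 1, 24.3% had 2 and 6.48% had all 3. Of the 4489 falling genes the same shares were 24.4%, 41.6%, 29% and 4.95%. The widest step was most often that from Low to High among rising genes (45.5%) and that from Sublow to Low among falling genes (46.3%). A departure from a straight line was called for 6385 genes (38.5%). For 3995 of these (24.1% of genes tested) the trend was called too, and for 2390 (14.4%) it was not.

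In 470 of the 547 every-step genes (2.84% of genes tested) a departure from a straight line was not called, which does not show that their steps are equal. The rising genes climbed more steeply: their median steps were 1.46, 1.59 and 1.85 log2 units, and 201 of 325 changed at least 2-fold at each step. The falling genes had median steps of -0.75, -0.98 and -0.95, and 43 of 222 changed at least 2-fold at each step. The rule selects steps that exceed the error, so these medians describe genes that passed and not all genes with an ordered profile. By the order of the 4 gate means alone, 2442 genes with a rising trend (14.7%) and 1946 with a falling one (11.7%) were graded. All 12 libraries lay in gate order for 477 rising (2.88%) and 467 falling genes (2.82%).

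**Figure D1:**
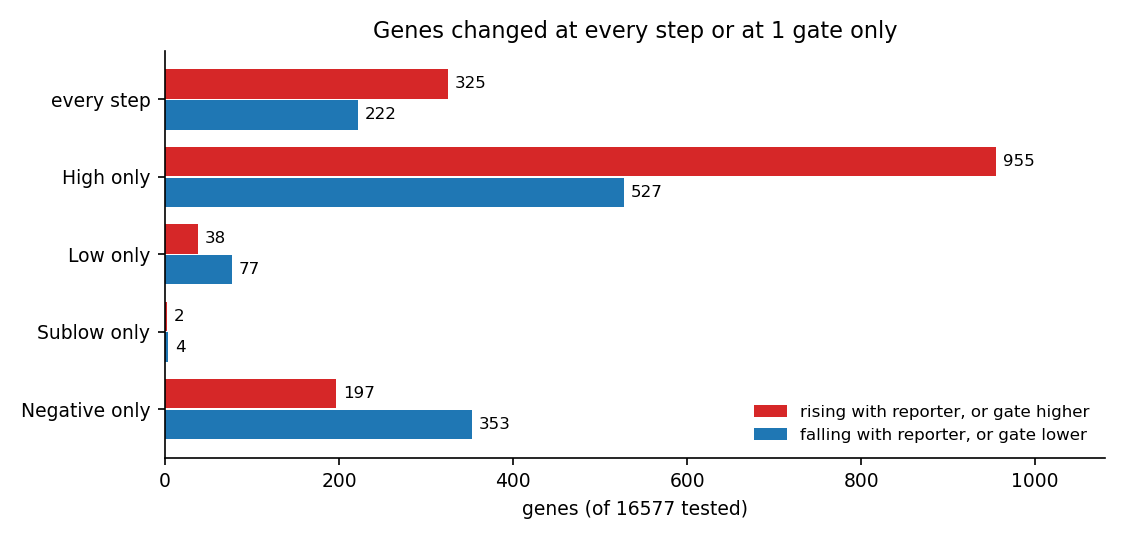
Number of genes, of 16577 tested, that changed at all 3 steps (top pair of bars) or at 1 gate only (other pairs), by direction. By these rules, genes changed at High only (955 higher, 527 lower) outnumber those changed at every step (325 rising, 222 falling), and Sublow has 2 and 4. The rules differ, so bar lengths do not rank graded against single-gate change.

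The promoters of a few step by step genes are printed here: Scg2, Chgb, Scg3, Cck and Rfx6 are endocrine genes among the named rising genes, and Mgam and Reg1 are named falling genes. The sequences are the 250 bases before the RefSeq start site on GRCm38.p6, and the deposited table itself has no coordinates. Capitals mark matches, on either strand, to the SOX core (ACAAAG or ACAATG), the E-box CAGATG bound by basic helix-loop-helix factors, and the cyclic AMP response element TGACGTCA. The last of these was added after the sequences had been seen. Every window printed here holds a match, so they do not stand for the named genes as a whole. The windows of the named rising genes Sh2d7, Resp18, Amigo2, Slc8a1, Pcsk1n and Tspan6 hold none. Nor do those of the named falling genes Prap1, Hkdc1, Vwce, Ppargc1a, Clca4b and Sult1b1. The window of Scg2 lies at chr1:79440027-79440276 (minus strand), Chgb at chr2:132781392-132781641 (plus strand), Scg3 at chr9:75684057-75684306 (minus strand), Rfx6 at chr10:51685268-51685517 (plus strand), Cck at chr9:121495695-121495944 (minus strand), Mgam at chr6:40628581-40628830 (plus strand) and Reg1 at chr6:78425733-78425982 (plus strand).
Scg2: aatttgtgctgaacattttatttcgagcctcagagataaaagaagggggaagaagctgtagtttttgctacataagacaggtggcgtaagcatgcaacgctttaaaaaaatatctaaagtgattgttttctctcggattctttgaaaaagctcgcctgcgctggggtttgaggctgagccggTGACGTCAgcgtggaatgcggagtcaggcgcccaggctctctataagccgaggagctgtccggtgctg
Chgb: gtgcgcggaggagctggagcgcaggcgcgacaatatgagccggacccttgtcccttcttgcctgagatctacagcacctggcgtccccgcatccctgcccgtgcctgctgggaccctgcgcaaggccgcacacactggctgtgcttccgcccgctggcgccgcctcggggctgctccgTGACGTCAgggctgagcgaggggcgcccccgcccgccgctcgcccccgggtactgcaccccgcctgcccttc
Scg3: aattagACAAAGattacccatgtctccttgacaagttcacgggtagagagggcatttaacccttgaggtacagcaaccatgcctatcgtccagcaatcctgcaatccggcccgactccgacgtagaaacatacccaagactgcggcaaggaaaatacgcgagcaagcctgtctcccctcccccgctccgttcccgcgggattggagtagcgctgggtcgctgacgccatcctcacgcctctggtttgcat
Rfx6: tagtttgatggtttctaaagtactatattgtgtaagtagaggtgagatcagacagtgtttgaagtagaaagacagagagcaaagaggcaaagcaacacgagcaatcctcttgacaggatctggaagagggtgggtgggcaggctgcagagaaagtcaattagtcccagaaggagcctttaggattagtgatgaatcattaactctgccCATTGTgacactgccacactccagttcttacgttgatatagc
Cck: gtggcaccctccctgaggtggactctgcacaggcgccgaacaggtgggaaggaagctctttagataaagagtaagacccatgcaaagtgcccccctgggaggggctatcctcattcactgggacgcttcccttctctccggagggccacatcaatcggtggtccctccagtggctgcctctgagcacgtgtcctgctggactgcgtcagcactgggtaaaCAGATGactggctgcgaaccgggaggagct
Mgam: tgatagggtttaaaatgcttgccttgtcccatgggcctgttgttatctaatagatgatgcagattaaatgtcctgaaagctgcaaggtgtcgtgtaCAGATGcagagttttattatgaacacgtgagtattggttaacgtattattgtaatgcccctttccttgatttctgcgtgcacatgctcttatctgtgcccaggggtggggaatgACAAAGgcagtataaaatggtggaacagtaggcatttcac
Reg1: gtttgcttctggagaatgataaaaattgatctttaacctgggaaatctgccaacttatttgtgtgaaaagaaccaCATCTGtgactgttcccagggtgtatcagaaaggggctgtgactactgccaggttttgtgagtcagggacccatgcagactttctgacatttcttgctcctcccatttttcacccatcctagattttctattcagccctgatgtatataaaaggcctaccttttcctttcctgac

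RefSeq promoters were found for 234 of the 325 rising and 177 of the 222 falling genes, with more than 1 promoter for some. The SOX core was present in 15.7% of promoters of rising genes, in 21.5% of those of falling genes and in 18.6% of those of all genes tested. The E-box was present in 12%, 12.8% and 10.6% in the same order, and CAAAGTC, part of the element bound by HNF4, a factor of enterocytes, in 3.09%, 3.65% and 3.54%. TGACGTCA was present in 3.09%, 0.913% and 2.4%. CAAAGTC shares 5 letters with ACAAAG, so matches to them can overlap. A match is a description of letters in this window and not a site of binding.

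Several of the 14 named genes that rose at every step encode proteins of the secretory granule of endocrine cells. Scg2, which encodes the granule protein secretogranin II and whose promoter is printed above, measured 18, 3.08 and 11.4 normalised reads in Negative and 80.7, 48.1 and 133 in Sublow. It measured 1444, 1311 and 990 in Low and 10465, 14007 and 11006 in High. All 12 libraries lay in gate order, with steps of 3.04, 3.93 and 3.25 log2 units and a slope of 3.46 ± 0.15 (adjusted p = 3.7e-09, limma). Chgb, which encodes chromogranin B, another granule protein, measured 626, 44.6 and 381 in Negative, 4462, 1169 and 4189 in Sublow, 52013, 40648 and 24800 in Low, and 360161, 288326 and 208621 in High. Its gates did not overlap either, and its slope was 3.46 ± 0.25 (adjusted p = 1.88e-07, limma), with Negative B far below Negative A and C.

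Sh2d7 stood first by the naming rule, which ranks genes by the smallest of their 3 steps. It encodes a protein with an SH2 domain, and measured 2.11, 1.54 and 4.56 normalised reads in Negative, 60.2, 11.2 and 80 in Sublow, 2122, 1190 and 1327 in Low, and 13235, 13386 and 13305 in High. Its steps were 3.47, 5.25 and 3.15 log2 units (slope 4.09 ± 0.18, adjusted p = 3.52e-09, limma), with no overlap between gates. The step from Negative rests on few reads, 7 in Negative against 160 in Sublow, a ratio of 18.8 after adjustment for depth (95% counting interval 8.9 to 47.4). The same holds for Resp18, an endocrine protein of the secretory pathway, with 3 reads in Negative against 37 in Sublow, a ratio of 10.1 (3.21 to 51.3). Resp18 rose in nearly equal steps of 2.95, 2.98 and 3.0 log2 units, to 761, 761 and 842 normalised reads in High. Intervals cover counting error only.

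The other named genes of this set covered prohormone processing, signalling and adhesion. Cpe, the carboxypeptidase that trims prohormones, rose with a slope of 3.44 ± 0.18, from 6.15 to 38 normalised reads in Negative to 14351 to 17261 in High. Pcsk1n, which encodes the prohormone convertase inhibitor proSAAS, rose with a slope of 3.09 ± 0.12. Scg3, another granin, had a slope of 3.21 ± 0.14. Cck, the hormone cholecystokinin, reached 17713 to 31266 in High (slope 3.47 ± 0.23), and Rfx6, a transcription factor of endocrine differentiation, 3874 to 4105 (slope 3.19 ± 0.28). Amigo2, an adhesion protein with leucine-rich repeats, Slc8a1, a sodium-calcium exchanger, Tspan6, a tetraspanin, Rgs4, a regulator of G protein signalling, and Mum1l1 completed the 14, with slopes of 3.57, 3.37, 3.04, 2.94 and 3.14. The call at every step ended for Rfx6 under 10 of 25 other settings and for Cck under 3, with adjusted p up to 0.0743 and 0.0787.

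Likeness to Sox9 itself was measured by the size of the steps. Over the 4 gates, the 6 genes whose 3 steps differed least from those of Sox9 included Gabbr1, a subunit of the GABA-B receptor, Map3k15, a kinase, F5, coagulation factor V, Cxxc5, a zinc finger protein, and Atp11a, a phospholipid flippase. No step of Gabbr1 differed from that of Sox9 by more than 0.17 log2 units. Gabbr1 measured 49.6, 24.6 and 51.3 normalised reads in Negative, 116, 93.9 and 168 in Sublow, 419, 394 and 302 in Low, and 1233, 1318 and 1177 in High. Its slope was 1.64 ± 0.09, and its gates did not overlap. For Atp11a, the last of the 6, the widest difference of a step was 0.37. The genes nearest to the mirror image were Ppargc1a, Vwce, Mgam, Tkfc, Mgam2-ps and Bche, with widest differences of 0.27, 0.30, 0.34, 0.44, 0.45 and 0.48. Likeness here is of 4 gate means only.

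**Figure D2:**
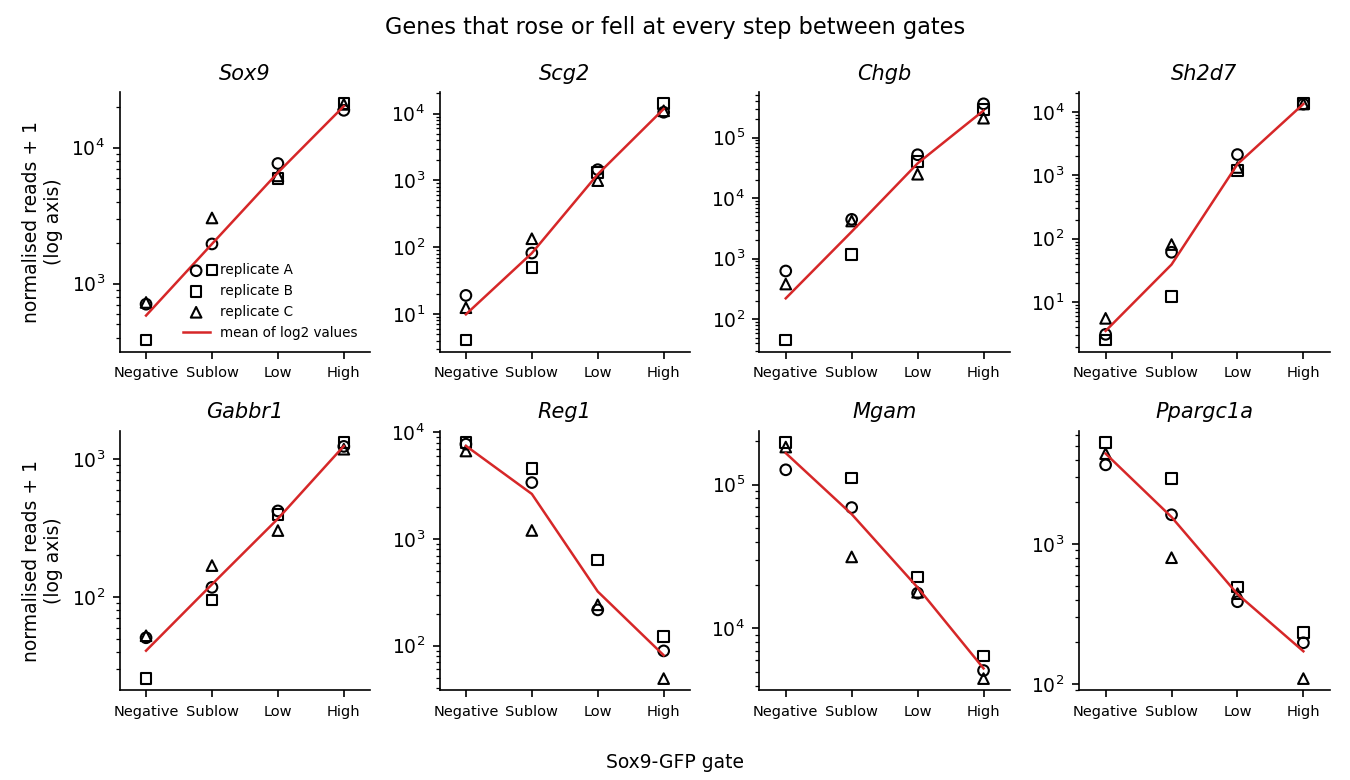
Normalised reads plus 1 (log axis) in each library of the 4 gates for Sox9, 4 rising genes and 3 falling genes; symbols are replicates A, B and C, and the red line joins the gate means of the log2 values. Libraries of neighbouring gates do not overlap in any of the 8 panels, and the 3 Sublow libraries lie far apart for Reg1, Mgam and Ppargc1a.

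Lists of endocrine genes followed the gates as a body. Of 22 tested genes of the enteroendocrine granule, 21 had a rising trend, against 30.3% of all genes, and 15 rose at every step, against 1.96%. Their median slope was 2.23, beside 0.0155 for all genes. Chga, the granule marker chromogranin A, climbed from 120 to 329 normalised reads in Negative to 90732 to 150003 in High (slope 3.14 ± 0.12, adjusted p = 1.92e-09, limma). Pcsk2, a prohormone convertase, was the member without a called trend, with a slope of 0.23. Syt13, Rab3c and Reg4 had called trends, but their differences between Sublow and Negative were -0.15, -0.43 and -0.51.

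All 12 tested hormone genes had a rising trend, against 30.3% of all genes, and 6 rose at every step, against 1.96%. Nts, which encodes neurotensin, had the steepest slope of all every-step genes, 5.0 ± 0.41, but its Sublow libraries measured 122, 1.12 and 159 normalised reads. Gcg, the gene of glucagon and its related peptides, measured 29.6, 0 and 1.14 in Negative, 202, 8.94 and 142 in Sublow, 2513, 1188 and 1265 in Low, and 15101, 15848 and 14016 in High (slope 4.01 ± 0.38, adjusted p = 1.63e-06, limma). For both, Sublow B lay within the range of Negative. Sst, somatostatin, did not follow the order: it measured 3566, 7428 and 3625 in Low and 1036, 430 and 746 in High, a difference of -2.72 (adjusted p = 0.15). Without Sublow A or without Sublow C the hormones called at every step numbered 2.

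Among 22 endocrine transcription factors, 21 had a rising trend, against 30.3% of all genes, and 10 rose at every step, against 1.96%. Neurod1, which acts late in endocrine differentiation, measured 21.1, 20 and 20.5 normalised reads in Negative, 98, 42.5 and 218 in Sublow, 1150, 874 and 1173 in Low, and 5934, 6555 and 8737 in High. Its slope was 2.84 ± 0.13 (adjusted p = 5.97e-09, limma), with no overlap between gates. Neurog3, which starts endocrine differentiation, was the exception. It measured 41.2, 0 and 19.4 in Negative, 103, 31.3 and 193 in Sublow, 127, 145 and 92.7 in Low, and 25.3, 12.9 and 6.76 in High, so that High lay with Negative and below Low. Its slope of 0.22 was not called (adjusted p = 0.621), the departure from a straight line was (adjusted p = 0.0208), and the fall from Low to High was 3.09 log2 units (adjusted p = 0.04).

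Tuft cell genes rose with the reporter too, but mostly from Sublow on. All 28 tested had a rising trend, against 30.3% of all genes. At every step 6 rose (Trpm5, Pou2f3, Plcb2, Ptgs1, Avil and Kctd12), against 1.96%. The step from Negative to Sublow was called upward for 9, against 15.1% of all genes. That from Sublow to Low was called upward for 22, against 10.7%, and that from Low to High for 27, against 23.6%. Median steps were 0.75, 4.03 and 3.17, and a departure from a straight line was called for 23, against 38.5% of all genes. Trpm5, a cation channel that taste cells also use, measured 25.3, 16.9 and 45.6 normalised reads in Negative, 173, 70.4 and 149 in Sublow, 4064, 2399 and 2166 in Low, and 26565, 26473 and 27153 in High. Dclk1, a common tuft marker, measured 33.8, 32.3 and 66.2 in Negative and 154, 38 and 81.7 in Sublow, which overlapped, before 6470, 3802 and 4530 in Low. Siglecf, a surface lectin, was at 8.01 and 6.48 on average in Negative and Sublow, at 175 in Low and at 9276 in High. Without Sublow B, the library of that gate lowest in Trpm5 and Dclk1, 13 of the 28 tuft genes were called at every step.

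Genes of synaptic and exocytosis machinery, which secretory cells share with neurons, had a rising trend in 19 of 20, against 30.3% of all genes. At every step 2 rose, against 1.96%: Stx1a, a syntaxin, and Cadps, which primes dense core vesicles. Of 19 Wnt target genes, 12 had a rising trend, against 30.3% of all genes. From Low to High, however, 11 fell, against 19.3%, and 2 rose, against 23.6%. At every step 1 rose, against 1.96%. That gene was Prox1, a homeobox factor, with steps of 2.54, 2.17 and 2.22, with 3207, 3091 and 3414 normalised reads in High and 23.2, 41.5 and 17.1 in Negative. Markers of cells other than epithelium were looked at beside these rises. For comparison, 30.3% of all genes tested had a rising trend and 27.1% a falling one. Of 12 T cell and lymphocyte genes tested, 2 had a rising trend, Lck and Ptprc, and the summed level of the list was 502.6 to 918.1 normalised reads in the libraries of the 3 lower gates and 2699 to 3977 in High. Ptprc, the leukocyte surface phosphatase CD45, supplied most of that sum, with 2110, 1933 and 3363 in High. Of 7 enteric neuron and glia genes, 4 rose (Elavl4, Tubb3, Uchl1 and Ret), and of 7 stroma genes Vim, an intermediate filament, rose to 4578, 2870 and 3108 in High. The summed stroma list was 319 to 1235 in the 3 lower gates and 3143 to 4839 in High, and that of neuron and glia genes 276.8 to 656.8 and 1829 to 2159. Of 8 myeloid genes 1 rose, the macrophage marker Adgre1, from 0 to 1.09 in Low to 14.4 to 54.1 in High. In Negative, Adgre1 measured 0 to 13.8. From Low to High 3 of the 8 myeloid genes fell, against 19.3% of all genes. The summed myeloid list was 285.4 to 366.9 in Low and 217.1 to 331.7 in High. Of 7 endothelial genes 2 fell and 2 rose, shares near those of all genes. Those that rose were Tek, from 9.42 to 20.6 in Low to 224 to 287 in High, and Plvap, from 15.1 to 45.8 to 144 to 244. The 1 red cell gene tested, Alas2, rose from 1.54 to 19 in Negative to 45.6 to 76.7 in High. The globin genes of that list were too low to be tested. Among them, Hba-a2 measured 0 to 45.6 in Negative and 0 to 1.8 in High, and Hbb-bs 3.08 to 17.1 and 0 to 5.07. Other markers of the same lists had no called trend: Cd3e, of the T cell receptor complex, measured 8.45 to 27.7 in Negative and 7.6 to 19 in High, and Col1a1, a fibroblast collagen, 11.4 to 15.8 and 8.29 to 21.1. Some markers were better detected in all gates. Cd3d, also of the T cell receptor complex and with no called trend, measured 484 to 563 in Negative and 308 to 467 in High. Col1a2, another collagen, measured 214 to 269 and 81.9 to 136, and Pecam1, of endothelium, 858 to 1043 and 667 to 852. Dcn and Lum, of fibroblasts, were at 0 in every Sublow and High library and too low in all gates to be tested. The part of such cells in the rising set was not tested.

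Named genes that fell at every step included digestive and detoxifying enzymes. Reg1, a secreted lectin-like protein of the Reg family with the promoter printed above, measured 7761, 8057 and 6694 normalised reads in Negative, 3387, 4560 and 1203 in Sublow, 216, 637 and 241 in Low, and 88.4, 122 and 48.1 in High. The gates did not overlap, and its slope was -2.26 ± 0.16 (adjusted p = 1.47e-07, limma). Mgam, the brush border maltase-glucoamylase, fell in even steps of -1.41, -1.69 and -1.87, from 126531, 195992 and 182041 in Negative to 5104, 6426 and 4486 in High. Mgam2-ps fell alike, but it is a close relative of Mgam and its reads may be shared, so its values are uncertain.

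Ppargc1a, a coactivator of mitochondrial biogenesis, was the nearest to a mirror image of Sox9. It measured 3677, 5318 and 4422 normalised reads in Negative, 1617, 2929 and 797 in Sublow, 386, 492 and 441 in Low, and 196, 232 and 108 in High (slope -1.59 ± 0.12, adjusted p = 3.33e-07, limma). Other falling genes encode enzymes: Ugt2a3, a glucuronosyltransferase (slope -2.01), Sult1b1, a sulfotransferase (-1.90), Hkdc1, which has hexokinase domains (-2.02), Arg2, mitochondrial arginase (-2.04), and Bche, butyrylcholinesterase (-1.64). H2-T3, a non-classical class I antigen, Emp1, a membrane protein, Prap1, a secreted acidic protein, Clca4b and Vwce had slopes of -1.81, -1.88, -1.83, -1.71 and -1.66.

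The number of genes called at every step moved with single libraries and with the model. Falling genes, 222 with all libraries, numbered 50 without Negative B, 89 without Sublow A, 129 without Low B, 136 without Sublow C, 140 without Negative C and 147 without Low A, of which 50, 88, 127, 108, 139 and 139 were among the 222. They numbered 89 with libraries scaled to the same total, 71 of them among the 222. They numbered 300 by DESeq2, 410 with the replicate letter as a block and 493 with library weights, and these hold 222, 222 and 220 of the 222. The count of rising genes was 195 without Sublow A, 205 without Low A and 215 without Low B, and 648 with library weights. Adjusted p-values of the weakest step of Arg2, Hkdc1, Prap1 and Sult1b1 exceeded their threshold in 15 of 25 other settings, reaching 0.164 to 0.176, and that of Reg1 in 14. Bche kept its call in all 25, as did Scg2, Sh2d7, Resp18 and Gabbr1.

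Nuclear genes of oxidative phosphorylation fell together in small steps. All 27 tested had a falling trend, against 27.1% of all genes, and 15 fell at every step, against 1.34%, with median steps of -0.53, -0.74 and -0.62. Atp5a1, a subunit of ATP synthase, measured 26551, 29820 and 27698 normalised reads in Negative, 19572, 20920 and 18769 in Sublow, 11551, 11788 and 12698 in Low, and 6705, 6127 and 6931 in High (slope -0.70 ± 0.04, adjusted p = 1.74e-08, limma). Sdhb, of succinate dehydrogenase, fell from 4231 to 4878 in Negative to 680 to 760 in High (slope -0.92 ± 0.05). The gates overlapped for neither gene. Ndufa1, of complex I, turned upward from Low to High by 0.64 (adjusted p = 0.028). The trend was called for all 27 with libraries scaled to the same total or by quantiles, but 2 were then called at every step in either case, and 4 without Negative B. The 13 tested genes of the mitochondrial genome all had a falling trend, none at every step, and the share of reads from that genome was 4.19% to 5.08% in Negative, 3.1% to 3.98% in Sublow, 2.53% to 3.31% in Low and 1.37% to 1.61% in High.

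Antimicrobial genes of the lower villus had a falling trend in 10 of 10, against 27.1% of all genes. At every step 4 fell, Reg1, Reg3b, Nlrp6 and Ccl25, against 1.34% of all genes. Reg3b, a lectin that kills bacteria, measured 23217, 21073 and 24602 normalised reads in Negative, 15066, 11179 and 11698 in Sublow, 2023, 1740 and 2211 in Low, and 584, 468 and 392 in High (slope -1.94 ± 0.05, adjusted p = 2.63e-10, limma). Nlrp6, a sensor of microbial signals, fell by 0.69, 0.51 and 3.10, so that its widest step was the last. The list's count at every step was 1 with libraries scaled to the same total, 0 under quantile scaling and 7 with the replicate letter as a block.

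Brush border enzymes and transporters had a trend as often, 22 of 23 falling, against 27.1% of all genes, but 1 of them, Mgam, fell at every step, against 1.34%. Their median steps were -1.71, -2.98 and -0.21, and the step from Sublow to Low was called downward for 22, against 13.3% of all genes. Sis, sucrase-isomaltase, measured 4679, 10405 and 5873 normalised reads in Low and 14570, 20218 and 19088 in High, a rise of 1.43 against its trend (adjusted p = 0.02, limma). Slc6a19, a transporter of neutral amino acids, rose by 2.45 at that step (adjusted p = 0.0011) and had no called trend. Genes of lipid absorption (21 of 23 falling, Dgat1 and Plin2 at every step) and xenobiotic enzymes (25 of 27 falling, 3 at every step) had small median last steps, -0.08 and -0.16. Fabp1, a fatty acid binding protein, rose by 2.59 from Low to High (adjusted p = 0.0054) after earlier steps of -2.01 and -3.59.

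**Figure D3:**
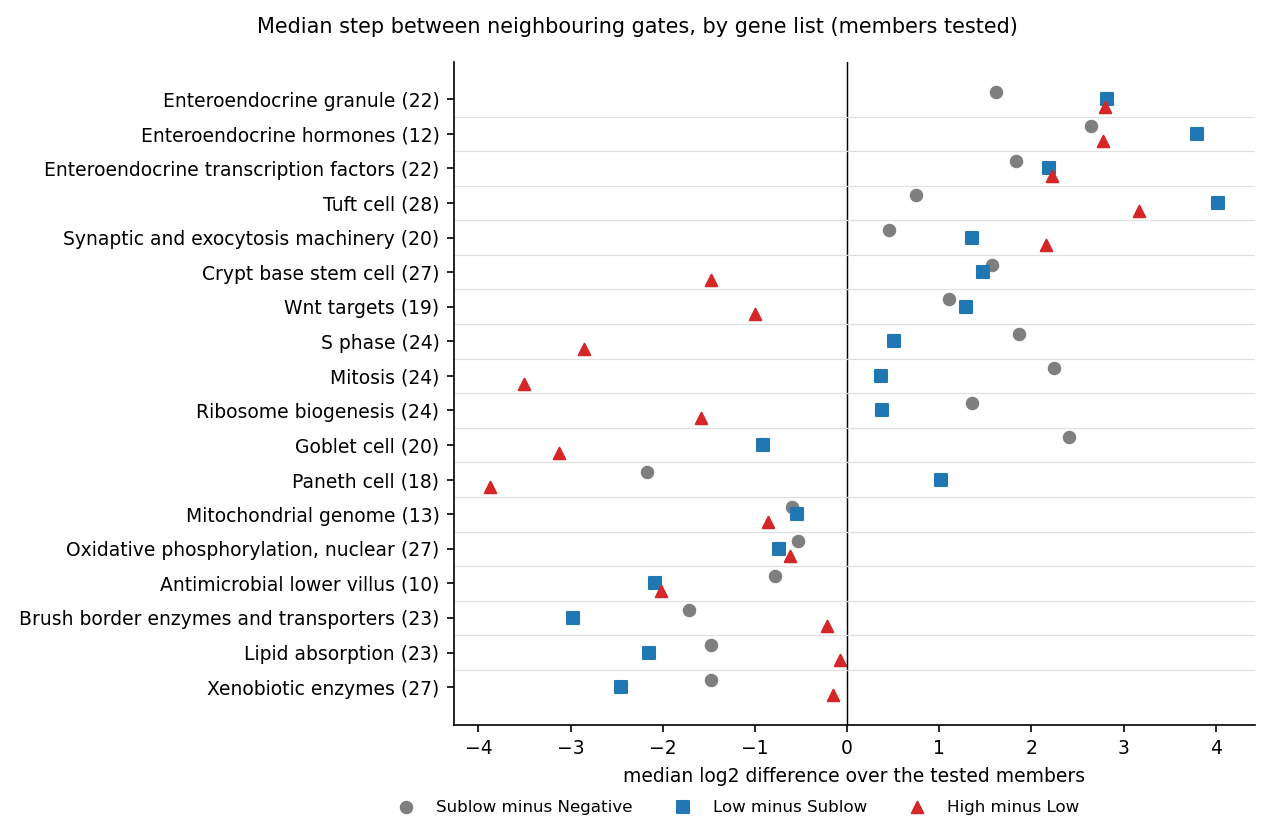
Median log2 difference between neighbouring gates over the tested members of 18 gene lists (number tested in brackets): circles for Sublow minus Negative, squares for Low minus Sublow, triangles for High minus Low. The 3 symbols lie on the same side of 0 for endocrine, tuft, mitochondrial, antimicrobial and absorptive lists, while stem, cell cycle and goblet lists have a positive first step and a negative last one.

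Stem cell genes often had a called trend without a graded profile. Of 27 crypt base stem cell genes, 21 had a rising trend, against 30.3% of all genes, and none rose at every step, against 1.96%. From Low to High 19 fell, against 19.3% of all genes. Lgr5, the receptor that marks cycling stem cells, measured 92.9, 49.2 and 59.3 normalised reads in Negative, 264, 115 and 519 in Sublow, 2150, 1923 and 3354 in Low, and 853, 573 and 853 in High. Its trend was called (slope 1.38 ± 0.14, adjusted p = 3.28e-06, limma), and so was its fall from Low to High (1.68 log2 units, adjusted p = 0.0086).

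The 24 tested S phase genes and the 24 mitosis genes all departed from a straight line, against 38.5% of all genes. None had a rising trend, and 6 and 7 had a falling one, a share near the 27.1% of all genes. All 24 of each list fell from Low to High, against 19.3% of all genes. From Negative to Sublow 21 S phase and 24 mitosis genes rose, against 15.1% of all genes. Mki67, a marker of proliferating cells, measured 6131, 1572 and 3679 normalised reads in Negative, 17530, 11832 and 18764 in Sublow, 20750, 21201 and 18958 in Low, and 2101, 1040 and 1242 in High. Sublow and Low overlapped for Mki67, and High lay within or below the range of Negative. With libraries scaled to the same total, 3 S phase genes had a rising trend and 1 a falling one, and 23 fell from Low to High. Falling trends among mitosis genes numbered 2 under that scaling and 13 under quantile scaling, and all 24 fell from Low to High in both. Over all 16577 genes, falling trends numbered 2682 and 5360 under these 2 scalings. Ribosome biogenesis genes rose from Negative to Sublow in 22 of 24 and fell from Low to High in 21, with a departure called for 23. With libraries scaled to the same total, 12 of those 24 had a rising trend, against 1 with the deposited scaling. That is near the share of all genes, as 7890 of 16577 had a rising trend with the same total.

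**Figure D4:**
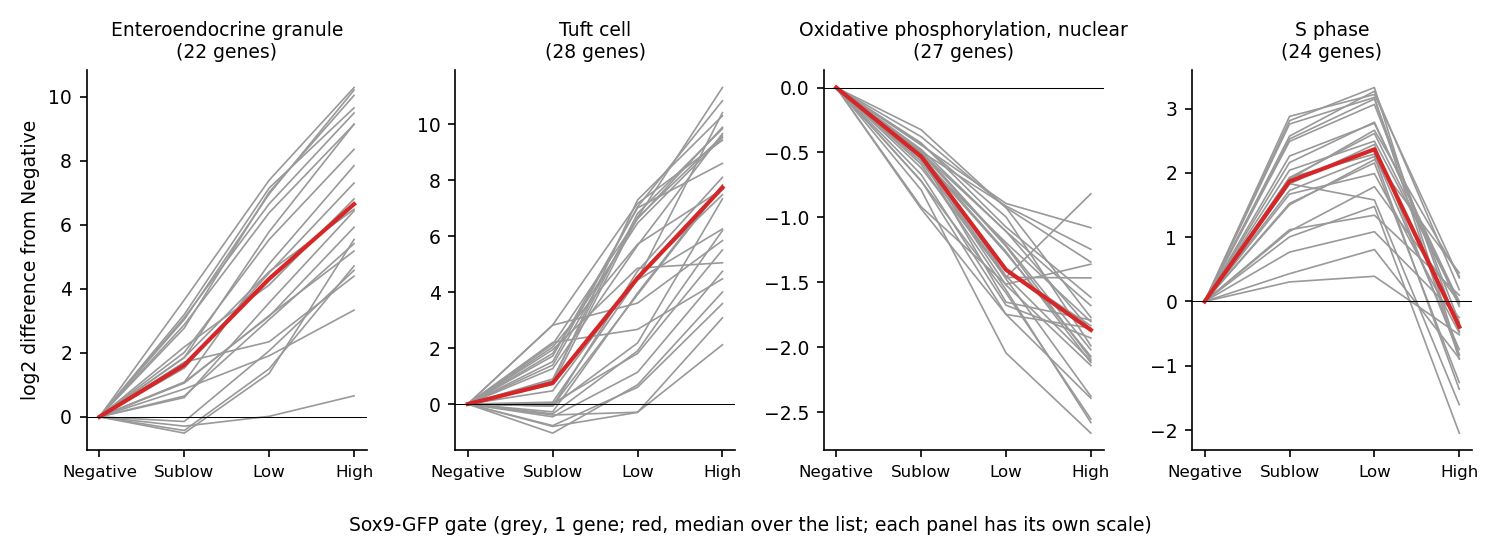
Log2 difference of each gate mean from Negative for every tested gene of 4 lists (grey lines) with the median (red), each panel on its own scale. The median of granule genes climbs at each gate, although Pcsk2, Syt13, Rab3c and Reg4 dip from Negative to Sublow. Tuft genes have a median step of 0.75 to Sublow and wider ones after it, and oxidative phosphorylation genes mostly fall in small steps. S phase genes rise mainly from Negative to Sublow, with no step from Sublow to Low called, and end near or below 0 in High.

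Goblet and Paneth genes, of the other secretory lineages, did not follow the reporter step by step. All 20 goblet genes rose from Negative to Sublow, against 15.1% of all genes, and 17 fell from Low to High, against 19.3%. Muc2, the main intestinal mucin, measured 23836, 14602 and 28845 normalised reads in Negative, 107602, 164377 and 151048 in Sublow, 52007, 144626 and 50862 in Low, and 1945, 1864 and 1298 in High. Of 18 Paneth genes, 17 had a falling trend, against 27.1% of all genes, and 5 were lower in High only, against 3.18%. Lyz1, lysozyme, measured 13454, 28211 and 35685 in Negative and 936, 103 and 1314 in High. Defa genes are a family of near-identical copies whose reads cannot be placed with certainty. The summed Paneth list was 54280 to 138100 in Negative, 18200 to 24180 in Sublow, 22130 to 55830 in Low and 689.2 to 6015 in High. Median steps of the 18 Paneth genes were -2.17, 1.02 and -3.87, and none was called upward from Sublow to Low.

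Most changes at 1 gate only were at the ends of the series. A gene was called so when that gate differed from each of the other 3 in the same direction and no difference among those 3 passed, which does not show that they are equal. High held 1482 such genes (8.94%), 955 higher (5.76%) and 527 lower (3.18%). Negative held 550 (3.32%), 197 higher (1.19%) and 353 lower (2.13%). Low held 115 (0.694%), 38 higher (0.229%) and 77 lower (0.464%), and Sublow 6 (0.0362%), 2 higher (0.0121%) and 4 lower (0.0241%). Of the 2153 one-gate genes, 2022 (12.2% of genes tested) also had a linear trend called. With libraries scaled to the same total 2149 genes were called at 1 gate only, of which 898 were among the 2153, and under quantile scaling 2403, of which 1235 were.

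At High, Sbpl measured at most 5.55 normalised reads in any of the 9 libraries of the lower gates and 846, 818 and 1511 in High, a step of 8.28 log2 units (adjusted p = 2.5e-05, limma). Grb10, an adaptor that binds growth factor receptors, measured 4.39 to 16.3 in the lower gates and 503, 517 and 449 in High, a step of 5.30. Prkcb, a protein kinase C, and Folr1, a folate receptor, had steps of 6.31 and 5.79. All 4 also had a called trend, with slopes of 1.65 to 2.58, and all 4 kept their call in 25 of 25 other settings. Among genes lower in High only, Rnase1, a secreted ribonuclease, measured 267, 311 and 450 in Negative, 208, 300 and 374 in Sublow, 195, 294 and 213 in Low, and 13.5, 17.5 and 19.4 in High. Ido1, which degrades tryptophan, and Defa34 differed from Low by -4.74 and -4.48, and Defa2 by -4.08, a call that ended in 15 of 25 settings.

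At Negative, Nap1l1, a histone chaperone, measured 167, 43.1 and 99.3 normalised reads against 434 to 2233 in the other gates, and its rise from Negative to Sublow was 3.27 log2 units (adjusted p = 0.0022, limma). Serpina1b, a protease inhibitor, rose there by 3.42, and its later steps were 0.28 and -0.01. Ass1, of arginine synthesis, and Lfng, which modifies Notch, rose by 4.29 and 3.56 at that step. The call of Ass1 ended by DESeq2 (adjusted p = 0.0856) and without Negative B (adjusted p = 0.0561), and that of Lfng without Sublow C (adjusted p = 0.0526). Ass1 had 31 reads in Negative, all of them in Negative A, against 207 in Sublow, a pooled ratio of 5.48 (95% counting interval 3.75 to 8.28). Its pooled ratios were also above 1 at the later steps, which were not called. They were 1.66 (1.39 to 1.97) for Low over Sublow and 3.24 (2.89 to 3.65) for High over Low. The call at Negative only therefore does not show that Ass1 was level in the other gates. Stab1, a scavenger receptor, was higher in Negative only, at 302, 392 and 262, against 40.4 to 220 in the other gates. The calls of Cytip and Angptl2, also higher there, ended in 15 and 13 of 25 settings, and that of Ccdc114 in 4.

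At Low, Rgmb, a co-receptor of BMP signalling, measured 2002, 1655 and 2345 normalised reads, against 357, 409 and 394 in Negative, 633, 388 and 1049 in Sublow and 579, 417 and 640 in High. It rose by 1.64 and fell by 1.88 log2 units on either side (adjusted p = 0.0023 and 0.0003, limma). Cgnl1, of cell junctions, Esrrg, a nuclear receptor, and Mpp3 were also higher in Low only. Upp1, uridine phosphorylase, was lowest in Low, at 257, 374 and 180, against 464 to 2760 elsewhere, and Slc52a3, a riboflavin transporter, Fam102b and Phf1 were lower there too. At Sublow, E2f2, a cell cycle factor, measured 1073, 874 and 990 against 391 to 780 in the other gates, and Smim14 was the other gene higher there. The 4 genes lower in Sublow only fell outside the naming rule and are named after their values were seen: Hdc, histidine decarboxylase, with means of 48.5, 28.6, 55.7 and 72.6 from Negative to High, and the weakly detected Evi2b, Prickle4 and Gm12291. The call of Smim14 ended in 13 of 25 settings and that of E2f2 in 6.

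**Figure D5:**
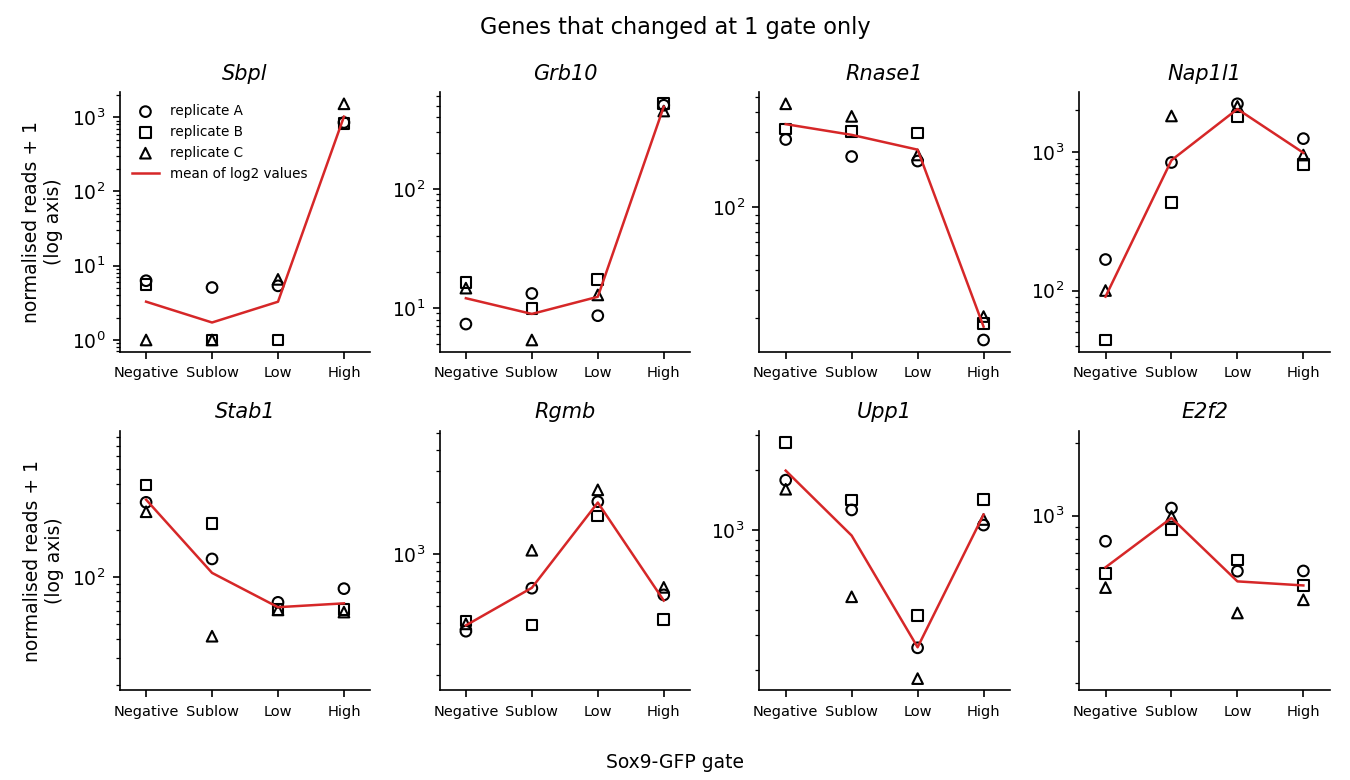
Normalised reads plus 1 (log axis) in each library of the 4 gates for 8 genes changed at 1 gate only; symbols are replicates A, B and C, and the red line joins the gate means of the log2 values. Sbpl and Grb10 stand apart in High, Rnase1 is low there, Nap1l1 and Stab1 differ in Negative, Rgmb and Upp1 in Low and E2f2 in Sublow.

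A called trend could also include a reversal. In 11 genes with a rising trend (0.0664%) Low lay below Sublow with a called step, and in 11 with a falling trend (0.0664%) Low lay above Sublow. C2, complement component 2, measured 95.9, 80.5 and 82.4 normalised reads in Low, 229, 188 and 96.7 in Sublow and 1199, 1241 and 1312 in High. Bmp2, a BMP ligand, measured 131, 194 and 108 in Low against 1081, 1148 and 1151 in High. Gabarapl2, of autophagy, and Syne3, of the nuclear envelope, were also among them. Without High, the slopes of C2, Bmp2, Gabarapl2 and Syne3 were -0.52, -0.75, -0.48 and -1.03. Rnf43, a Wnt inhibitor, had a slope of -0.25 (adjusted p = 0.000957, limma), although it measured 3745, 3461 and 3606 in Low, above every library of the other gates. Without High its slope was 0.63, that of Afap1l1 0.92 and that of Ngef 0.01, and without Negative that of Pnliprp2, a lipase, was 0.27.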

How the data were processed

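RNA was sequenced from 12 libraries, 3 for each of 4 Sox9-GFP gates. Per the labels' protocols, RNA of 12000 cells was depleted of ribosomal RNA for each library, prepared with a SMARTer Pico v2 total RNA kit and read single-end. The authors deposited normalised read counts, a signal per gene and library, and 100% of values were whole multiples of 1 step per library (tolerance 0.01), that is counts divided by a size factor. Median-of-ratios factors recomputed from the values left every call count as it was. For the aligner, counter, strand setting, genome build and annotation, nothing is stated in the sources used here. A floor of 3 counts is 2.377 to 4.613 normalised reads.

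Genes that reached 10 normalised reads in 3 or more libraries were fitted as log2(value + 1) with limma 3.58.1 (R 4.3.3; trend, prior degrees of freedom 4.1), with a mean for each of the 4 gates. The trend was the linear contrast, departure an F-test on 2 degrees of freedom, and each was adjusted by Benjamini-Hochberg over 16577 genes. Named genes are the 14 each way with the largest smallest step among every-step genes with a mean of at least 100 and all libraries in gate order, 6 nearest to Sox9 and to its mirror image, and 4 for each one-gate class and each kind of reversal. The naming rule skipped predicted genes and small structural RNAs, and 1 gene it names is not reported here. Members of the 41 lists that are described, and the settings quoted for them, were picked after their values were seen. The lists, the rule and the comparison itself were chosen with earlier results of these data known. The edgeR 4.0.16 (quasi-likelihood) and DESeq2 1.42.0 alternatives used the recovered counts. The scripts were tested on simulated counts.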

Additional observations from a re-analysis of the deposited data

How the results depend on the processing

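The slope of Sox9 ranged from 1.62 to 1.76 when single libraries were left out. On recovered counts, edgeR called 5140 rising and 4315 falling trends, 342 genes rising and 171 falling at every step, 6286 departures and 2203 one-gate genes, and DESeq2 5049, 4676, 408, 300, 7199 and 2192. Genes falling at every step, 222 in the reported fit, numbered 89 with libraries scaled to the same total, 113 under quantile scaling, 493 with library weights, 28 at adjusted p below 0.01, 43 with a 2-fold minimum, 1946 by the order of means and 467 by no overlap of libraries. Genes rising at every step, 325 in the reported fit, numbered 648 with library weights, 106 at 0.01, 201 with a 2-fold minimum and 2442 by the order of means. Rising trends numbered 7890 and falling trends 2682 with libraries scaled to the same total, and falling trends 2781 with a 2-fold minimum. Departures numbered 9600 with library weights and 3823 at 0.01, and one-gate genes 1064 with a 2-fold minimum. Leaving out 1 library at a time gave 195 to 325 genes rising and 50 to 233 falling at every step, 4546 to 5356 rising and 4115 to 4761 falling trends, 5060 to 7037 departures and 1930 to 2561 one-gate genes. Slopes that changed sign without High were those of C2 (-0.52), Bmp2 (-0.75), Gabarapl2 (-0.48), Syne3 (-1.03), Ngef (0.0097), Afap1l1 (0.92) and Rnf43 (0.63), and without Negative that of Pnliprp2 (0.27). For the other changes the cause was not tested, except that a 2-fold minimum, and for genes called at every step a stricter threshold, can only remove calls. At adjusted p below 0.01, 1595 genes were called at 1 gate only, of which 1072 were among the 2153.

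The replicate letters share a number and the labels do not say what it stands for. Same-letter libraries of different gates deviated from their gate means with correlations of 0.0521 to 0.341, of which 13 of 18 were over 0.1, and all 12 libraries correlated best with their own letter. With the letter as a replicate block, 5309 genes rose and 4780 fell by the trend, and 417 rose and 410 fell at every step. Genes with few reads limit the first step: Negative held 3 to 7 reads in all for Sh2d7, Resp18, Amigo2, Slc8a1, Pcsk1n, Mum1l1 and Tspan6.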

Other observations

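Among 10 tested Sox family genes, 2 rose at every step, Sox9 and Sox12, against 1.96% of all genes. The gates were sorted on the Sox9 reporter, so of these 2 only Sox12 bears on the family. Sox12 measured 19, 20 and 35.4 normalised reads in Negative, 35.7, 38 and 80 in Sublow, 137, 119 and 116 in Low, and 293, 270 and 204 in High (slope 1.14 ± 0.10, adjusted p = 1.26e-06, limma). Sox4, which acts in secretory progenitors, peaked in Low, at 4043, 3847 and 3271, against 2170, 2032 and 1847 in High. Sox8 was higher in High only, at 30.7, 35.9 and 48.1, and Sox6 in Negative only.

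Polycomb genes, which keep chromatin silent, had a rising trend in 14 of 24, against 30.3% of all genes, none at every step, against 1.96%. Cbx6, a chromobox protein, had the steepest slope of them, 1.61 ± 0.14, from 65.5, 16.9 and 39.9 normalised reads in Negative to 970, 1085 and 1031 in High. With libraries scaled to the same total 22 of the 24 had a rising trend, as had 7890 of all 16577 genes tested. Of 20 genes of cholesterol synthesis, 5 were higher in High only, against 5.76% of all genes. From Sublow to Low 8 fell, against 13.3% of all genes, and from Low to High 13 rose, against 23.6%. Jag2, a Notch ligand, was the Notch pathway gene that rose at every step (slope 1.29 ± 0.07), while Notch1 fell by 2.01 from Low to High.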
